A study of Homo sapiens with 6 samples.

Results

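The genes described are the amino acid transporters of T98G cells, taken as all rows of the deposited count table whose symbols belong to the solute carrier families SLC1, SLC3, SLC6, SLC7 (without SLC7A11), SLC36, SLC38 and SLC43. The rule reads the symbol and no measured value, although the set was proposed with earlier results of these data known, and it gave 58 genes of the 57133 in the table. T98G is an established human glioblastoma line. Its CBX8 gene, which encodes a chromodomain subunit of Polycomb repressive complex 1, had been targeted with Cas9 and a guide from a transfected plasmid, followed by puromycin selection. These cells then received lentivirus for the rtTA activator together with a tet-inducible vector that was either empty (CBX8 KO, 3 libraries) or held V5-tagged WT CBX8 (WT CBX8 re-expression, 3 libraries), and were selected again with puromycin and hygromycin. Both groups were treated with doxycycline (1 μg/ml, 72 h), in a medium supplemented with a glutamine source and non-essential amino acids. The labels call the genotype of the re-expression libraries wild type, although their titles and the study's methods describe CBX8 put back into the KO line. Whether the KO line is 1 clone is not given in the sources used here. Each group is a separately transduced and selected line, so an effect of CBX8 and a difference between the lines cannot be told apart.

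Amino acids cross the plasma membrane through carriers with different energy sources. Sodium-coupled carriers (SLC1, SLC6 and SLC38) concentrate glutamate, glutamine, alanine, glycine or taurine in the cell. Obligatory exchangers swap 1 amino acid for another, and most of the SLC7 light chains do so only when disulfide-linked to an SLC3 heavy chain that brings them to the cell surface. Several SLC36 and SLC38 members work at the lysosome. In the brain, astrocytes take up glutamate through SLC1A2 and SLC1A3, and glioma cells are known to depend on imported glutamine and essential amino acids. The rule also takes in carriers of other substrates, such as creatine (SLC6A8), the monoamines (SLC6A2, SLC6A3 and SLC6A4) and purine nucleobases (SLC43A3).

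The libraries held between 7950190 and 8659796 counts each. CBX8 had 83 to 104 counts in the CBX8 KO libraries and 27791 to 31408 in the re-expression libraries, so all 6 matched their labels. The counts do not separate vector from endogenous transcripts. Of 9 markers chosen for a mesenchymal or glial tumour line, VIM, CD44, FN1 and S100A6 were abundant, GFAP and OLIG2 had at most 38 counts, NES at most 4, and SOX2 and S100B none. Among them CD44 was lower upon re-expression (log2 fold change -0.21, edgeR adjusted p = 0.0097), while FN1 (0.22, edgeR adjusted p = 0.0031) and S100A6 (0.28, edgeR adjusted p = 0.010) were higher. GFAP and OLIG2 lay above KO in all 3 re-expression libraries without passing (edgeR adjusted p = 0.13 and 0.056). The 9 markers, whose changes went in both directions, summed to between 6202 and 6489 CPM (counts scaled to libraries of one common size) in CBX8 KO and between 5964 and 6390 CPM upon re-expression. Summed levels of the neuronal markers were 11.3 to 13 CPM in CBX8 KO and 13.9 to 16.7 CPM upon re-expression, mostly SNAP25, while RBFOX3 had at most 1 count and STMN2 none. The part of these markers in the transporter results was not tested. Summed markers of leukocytes, epithelium, endothelium and oligodendrocytes were at most 3.06 CPM in any library. In bulk RNA, fewer cells that express a gene and less RNA per cell cannot be told apart.

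Of the 58 transporter genes, 25 had enough counts to be tested and 33 did not. The 13 genes SLC1A6, SLC6A3, SLC6A5, SLC6A13, SLC6A14, SLC6A15, SLC6A17, SLC6A18, SLC7A3, SLC7A13, SLC36A2, SLC36A3 and SLC38A8 had 0 counts in every library, which at these depths allows up to 3 counts (0.346 to 0.377 CPM) from counting error alone. Among the other 20 untested genes, SLC7A7 reached 11 counts and SLC7A10 reached 10, and the remaining 18 had at most 6. These 18 include SLC1A2, the main glutamate carrier of mature astrocytes, with 1 to 3 counts, and SLC38A3 and SLC38A5, the glutamine carriers of system N, with at most 2. SLC38A11 had 0 counts in each CBX8 KO library and 3, 3 and 1 upon re-expression, so every re-expression library lay above every KO library. The limit of 3 counts holds for a single library and does not decide whether the groups differ. SLC38A11 had too few counts to be tested, so no fold is given.

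Levels of different genes were compared as CPM per kilobase of the canonical transcript, where CPM takes the TMM-corrected total of each library as its base. SLC7A5, the light chain LAT1 that imports leucine and other large neutral amino acids in exchange for glutamine, was highest at 280 to 338 CPM per kilobase over the 6 libraries. Its heavy chain SLC3A2 (4F2hc, CD98) followed at 186 to 231. SLC38A2 (SNAT2), a sodium-coupled carrier of small neutral amino acids, lay at 103 to 115, and SLC1A5 (ASCT2), a sodium-dependent exchanger of glutamine and other neutral amino acids, at 82.0 to 104. SLC38A1, SLC43A3, SLC6A6, SLC7A1, SLC7A6 and SLC38A10 formed a middle range from 13.2 to 41.2 CPM per kilobase, and the other 15 tested genes were between 0.984 and 8.10. In the order by mean level, 17 of the 24 neighbouring pairs overlapped in range and 7 did not. SLC7A5, SLC3A2 and SLC38A2 were separated from each other, whereas SLC38A2 overlapped SLC1A5. SLC7A5 alone took 35.7% to 37.7% of all transporter counts of a library.

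**Figure D1:**
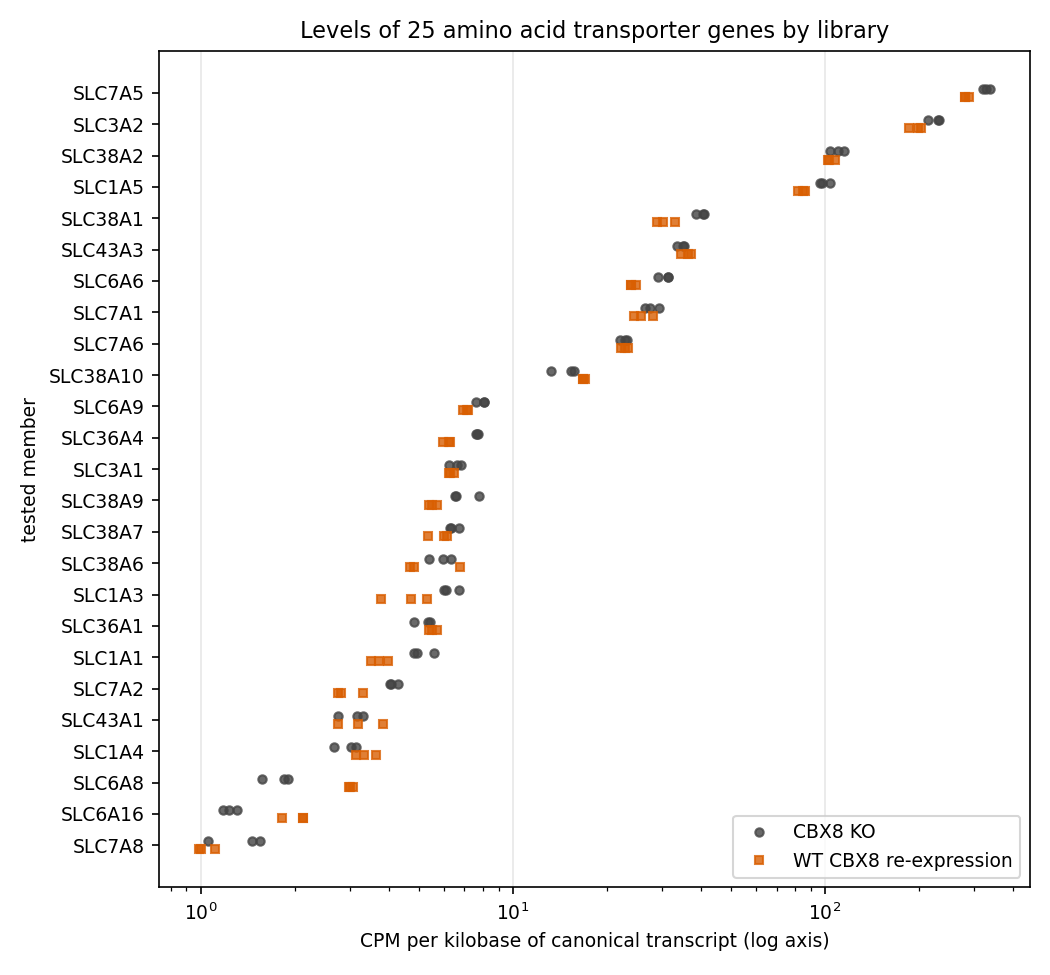
Level of each of the 25 tested transporter genes in each library, in CPM per kilobase of the canonical transcript on a log axis. Circles are the 3 CBX8 KO libraries and squares the 3 WT CBX8 re-expression libraries. SLC7A5 and SLC3A2 lie above all others, and from SLC6A9 down each member overlaps the next one in the order.

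Upon WT CBX8 re-expression, 9 of the 25 tested transporters were lower than in CBX8 KO, 2 were higher and 14 did not pass adjusted p < 0.05 in edgeR's quasi-likelihood test across all tested genes. Over all 14461 tested genes, 6.63% passed as lower and 6.23% as higher, and as earlier results were known when the transporters were chosen, their shares are a description. The 9 lower genes were SLC1A1, SLC1A3, SLC1A5, SLC3A2, SLC6A6, SLC7A2, SLC7A5, SLC36A4 and SLC38A1, and the 2 higher genes were SLC6A8 and SLC6A16. The count of higher genes is near the share over all tested genes. Among those lower, SLC3A2 fell by 13.1%, the smallest of the 9 falls, and SLC7A2 fell by 28.4%, the largest. The median log2 fold change, given throughout as re-expression minus KO, was -0.14 over the 25 transporters (17 below 0 and 8 above) and 0.0049 over all tested genes. Of the 4 transporters with the highest levels per kilobase, 3 were lower (SLC7A5, SLC3A2 and SLC1A5), and SLC38A2 did not pass. Libraries of the groups did not overlap for 16 transporters, with re-expression below KO for 12 and above for 4, against 14.4% below and 14.4% above over all tested genes. The 4 above are near that share. With library size as the only scaling, 8 transporters were lower and 3 higher. Over all genes, the calls that were lower made up 51.6%, and 29.7% with that scaling. The summed level of all 58 transporters was 4027, 4095 and 4046 CPM in the CBX8 KO libraries and 3556, 3595 and 3584 CPM upon re-expression, without overlap.

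**Figure D2:**
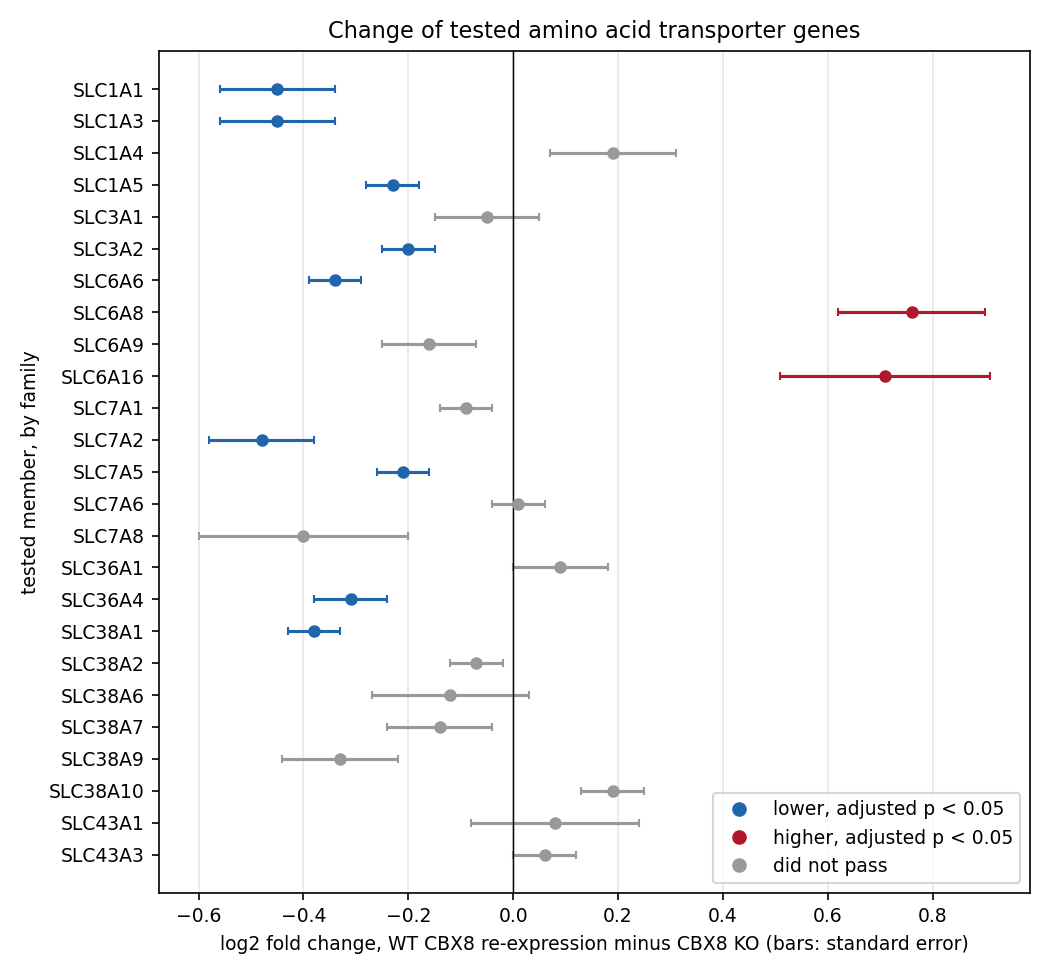
Log2 fold change of each tested transporter (WT CBX8 re-expression minus CBX8 KO), with its standard error as bars, ordered by family. Blue marks the 9 genes that passed as lower, red the 2 that passed as higher, and grey the 14 that did not pass.

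Short promoter sequences are shown for the members that carry the core of a response element known to bind a stress-induced transcription factor, as amino acid carriers are among the known targets of such elements. The core of the amino acid response element, which ATF4 binds with a C/EBP partner, was searched as TGATGNAA, and the core of the antioxidant response element, the site of NRF2, as TGACNNNGC, both on either strand. The windows run from 250 bases before to 50 bases after RefSeq transcription starts (GRCh38.p14), and a gene can have several. Of the 25 tested transporters, 21 had windows (38 in all). SLC3A1, SLC6A6, SLC7A2 and SLC43A3 had no entry. The amino acid response core was found in 6 of these 21 genes and 6 of their 38 windows (15.8%), against 3.62% of all 35116 windows and 1.99% of the 14184 windows of tested genes. Genes that hold it were SLC1A3, SLC1A5, SLC3A2 and SLC38A1, which were lower, and SLC1A4 and SLC7A1, which did not pass. SLC1A1, SLC7A5 and SLC36A4, also lower, had windows without it. The matches of SLC1A5, SLC38A1, SLC3A2 and SLC1A4 lie within the annotated gene, at starts downstream of its outermost end. Which starts these cells use was not tested. Of the 9 lower genes 7 had windows, so no share is given for them alone. A match is a description of letters and not a bound site. Each line gives the gene strand from 5′ to 3′, with the core or its reverse complement in capitals.
SLC1A3 (chr5:36596357-36596386, plus strand, core starting 220 bases before a start): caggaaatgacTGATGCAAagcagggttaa
SLC1A5 (chr19:46784893-46784922, minus strand, 97 bases before a start): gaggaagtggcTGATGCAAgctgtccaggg
SLC38A1 (chr12:46266502-46266531, minus strand, 4 bases before a start): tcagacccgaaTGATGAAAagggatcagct
SLC3A2 (chr11:62881725-62881748, plus strand, 38 bases into the transcript, reverse complement): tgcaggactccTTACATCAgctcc
SLC1A4 (chr2:64989381-64989410, plus strand, 7 bases before a start, reverse complement): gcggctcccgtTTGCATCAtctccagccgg
SLC7A1 (chr13:29595663-29595692, minus strand, 8 bases into the transcript): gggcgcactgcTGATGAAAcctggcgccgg

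The SLC1A3, SLC1A5 and SLC1A4 cores read TGATGCAA on 1 of the strands, those of SLC38A1 and SLC7A1 read TGATGAAA, and that of SLC3A2 reads TGATGTAA. The antioxidant response core was found in 6 of the 21 genes (SLC1A3, SLC1A5, SLC3A2, SLC7A1, SLC7A5 and SLC7A6) and in 6 of 38 windows (15.8%), against 13.3% of all windows and 14.5% of those of tested genes. The share of windows is near that of tested genes. The matches of the dimer partners SLC3A2 and SLC7A5 are shown, and that of SLC7A5 runs across the start. Matches of SLC1A3 and SLC1A5, which were lower, and of SLC7A1 and SLC7A6, which did not pass, are not shown.
SLC3A2 (chr11:62881652-62881680, plus strand, 37 bases before a start): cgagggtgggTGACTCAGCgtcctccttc
SLC7A5 (chr16:87869491-87869519, minus strand, 2 bases before a start): gcggggttccTGACGCAGCtgcgggcggc

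Among the heteromeric exchangers, both chains of the leucine importer LAT1 were lower upon re-expression, by nearly the same amount. SLC7A5 (chromosome 16 from 87830023 to 87869507, minus strand) had 1462, 1542 and 1499 CPM in the CBX8 KO libraries and 1281, 1322 and 1278 CPM in the re-expression libraries. All 3 re-expression libraries were below all 3 KO libraries. Its log2 fold change came to -0.21, with a standard error (SE) of 0.05 and an edgeR adjusted p of 0.0032. SLC3A2 (chromosome 11 from 62856004 to 62888880, plus strand), the heavy chain that carries SLC7A5 to the plasma membrane, had 404, 436 and 433 CPM in KO and 375, 382 and 350 CPM upon re-expression. The groups again did not overlap, at -0.20 on the log2 scale (SE 0.05; edgeR adjusted p = 0.0072). The call was lost with library size only (edgeR adjusted p = 0.057) and without CBX8 KO replicate 2 (edgeR adjusted p = 0.056). The ratio of SLC7A5 to SLC3A2, both per kilobase, was 1.5, 1.46 and 1.43 in KO and 1.41, 1.43 and 1.51 upon re-expression, so the groups overlapped and the chains kept nearly the same proportion. This ratio and the others given here were chosen after the values were seen and were not tested.

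SLC7A11 is outside the rule but pairs with SLC3A2 as the cystine importer xCT. Its level was 624, 624 and 629 CPM in KO and 456, 486 and 565 CPM upon re-expression (log2 fold change -0.32, SE 0.06, edgeR adjusted p = 0.00045). Together, the light chains SLC7A5, SLC7A6, SLC7A7, SLC7A8, SLC7A10 and SLC7A11 summed to 1.82 to 1.92 times the level of SLC3A2 per kilobase in KO and to 1.77 to 1.96 times upon re-expression. SLC7A5 made up 77.0% to 79.8% of that sum in any library. Neither of the other tested light chains within the rule passed. SLC7A6 (y+LAT2), which exchanges arginine and other cationic amino acids for glutamine, had 145, 138 and 143 CPM in KO and 139, 143 and 146 CPM upon re-expression. Its log2 fold change was 0.01 (SE 0.05; edgeR adjusted p = 0.96), and its exons overlap 4217 bases of 2 antisense genes, SLC7A6OS among them, whose reads could be shared. SLC7A5 was 13.8 to 15.3 times as abundant as SLC7A6 per kilobase in KO and 12 to 12.7 times upon re-expression, without overlap.

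SLC7A8 (LAT2) was scarce, with 35 to 52 counts per library. It had 6.56, 6.18 and 4.48 CPM in KO and 4.70, 4.23 and 4.17 CPM upon re-expression (log2 fold change -0.40, SE 0.20, edgeR adjusted p = 0.21), with overlap between the groups. SLC3A1 (rBAT), the heavy chain of the renal cystine carrier, had 145 to 171 counts per library and did not differ beyond replicate spread (log2 fold change -0.05, SE 0.10, edgeR adjusted p = 0.80). Its usual partner SLC7A9 had a single count of 1, in CBX8 KO replicate 1. Exons of SLC3A1 overlap 1923 bases of PREPL on the other strand, and PREPL had 624 to 746 counts, so reads of these genes cannot be told apart without strand.

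In the SLC1 family, 3 of the 4 tested members fell upon re-expression, the glutamate carriers SLC1A1 and SLC1A3 and the glutamine exchanger SLC1A5. SLC1A5 (chromosome 19 from 46774883 to 46788594, minus strand) had 277, 282 and 299 CPM in KO and 246, 236 and 248 CPM upon re-expression. Every re-expression library lay below every KO library, a difference of -0.23 on the log2 scale (SE 0.05; edgeR adjusted p = 0.0017). SLC1A1 (EAAT3; chromosome 9 from 4490468 to 4587469, plus strand), which takes up glutamate and also cysteine, had 20.6, 18.2 and 17.9 CPM in KO and 14.7, 13 and 13.8 CPM upon re-expression. The groups did not overlap, and SLC1A1 fell by 26.7% (log2 fold change -0.45, SE 0.11, edgeR adjusted p = 0.0063). Without WT CBX8 re-expression replicate 2 it did not pass (edgeR adjusted p = 0.052). SLC1A3 (EAAT1 or GLAST; chromosome 5 from 36596588 to 36688334, plus strand), the astrocyte glutamate carrier, had 24.0, 26.4 and 23.5 CPM in KO and 14.8, 18.5 and 20.8 CPM upon re-expression. The re-expression libraries spread more than those of KO but stayed below them. The log2 fold change was -0.45 (SE 0.11; edgeR adjusted p = 0.0072), and -0.33 without WT CBX8 re-expression replicate 1, where it did not pass (edgeR adjusted p = 0.055).

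SLC1A4 (ASCT1), the neutral exchanger for alanine, serine and cysteine, went the other way without passing. It had 14.3, 13.8 and 12.2 CPM in KO and 16.6, 15.2 and 14.3 CPM upon re-expression (log2 fold change 0.19, SE 0.12, edgeR adjusted p = 0.31). The highest KO library and the lowest re-expression library nearly touched. SLC1A5 exceeded SLC1A4 per kilobase by 4.94, 5.02 and 5.29 log2 units in KO and by 4.55, 4.62 and 4.78 log2 units upon re-expression.

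Of the cationic amino acid carriers of SLC7, SLC7A2 fell and SLC7A1 did not pass. SLC7A2 (CAT2; chromosome 8 from 17497088 to 17570573, plus strand), which supplies arginine and lysine, had 32.7, 30.9 and 30.8 CPM in KO and 20.9, 21.5 and 25.2 CPM upon re-expression. The groups did not overlap, and this was the largest fall of the 25 transporters (log2 fold change -0.48, SE 0.10, edgeR adjusted p = 0.00096). SLC7A1 (CAT1), the widely expressed arginine carrier, was far more abundant per kilobase, at 24.5 to 29.4 against 2.75 to 4.29 for SLC7A2. It had 216, 195 and 202 CPM in KO and 180, 189 and 206 CPM upon re-expression, with overlap (log2 fold change -0.09, SE 0.05, edgeR adjusted p = 0.30). The log2 ratio of SLC7A2 to SLC7A1 per kilobase was -2.77, -2.71 and -2.77 in KO and -3.16, -3.19 and -3.08 upon re-expression.

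Among the 6 tested SLC38 carriers, SLC38A1 fell and the more abundant SLC38A2 did not pass. SLC38A1 (SNAT1; chromosome 12 from 46183063 to 46270017, minus strand), a sodium-coupled carrier of glutamine and other neutral amino acids, had 333, 313 and 329 CPM in KO and 235, 245 and 268 CPM upon re-expression. The gap between the groups was wider than the spread within either. SLC38A1 fell by 23.4% (log2 fold change -0.38, SE 0.05, edgeR adjusted p = 7.5e-06), the lowest p of the 25 transporters. SLC38A2, its neighbour on the chromosome and a gene known to be induced by amino acid shortage, had 552, 530 and 496 CPM in KO and 517, 492 and 493 CPM upon re-expression, with overlap (log2 fold change -0.07, SE 0.05, edgeR adjusted p = 0.40). The log2 ratio of SLC38A1 to SLC38A2 per kilobase was -1.48, -1.51 and -1.35 in KO and -1.89, -1.76 and -1.64 upon re-expression.

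The other tested members of the family did not pass. SLC38A9, an arginine-sensing lysosomal carrier that signals to mTORC1, had 19.7, 16.6 and 16.4 CPM in KO and 13.6, 13.9 and 14.4 CPM upon re-expression. The groups did not overlap, but its log2 fold change of -0.33 (SE 0.11) had an edgeR adjusted p of 0.054. It passed without CBX8 KO replicate 3 (edgeR adjusted p = 0.046). SLC38A7, a lysosomal glutamine carrier, had a log2 fold change of -0.14 (SE 0.10; edgeR adjusted p = 0.38). SLC38A10 had 59.4, 70.7 and 69.2 CPM in KO and 75.5, 76.4 and 75.1 CPM upon re-expression, a log2 difference of 0.19 (SE 0.06; edgeR adjusted p = 0.059). It passed with upper quartile scaling (edgeR adjusted p = 0.044) and with library size only (edgeR adjusted p = 0.015). SLC38A6 was scarce and overlapped between the groups (log2 fold change -0.12, SE 0.15, edgeR adjusted p = 0.68).

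Of the SLC36 carriers, SLC36A4 fell and SLC36A1 did not pass. SLC36A4 (PAT4; chromosome 11 from 93144174 to 93197991, minus strand), a high-affinity carrier of proline and tryptophan, had 45.9, 46.2 and 46.6 CPM in KO and 38.0, 36.1 and 37.6 CPM upon re-expression. The KO libraries were nearly identical and all above re-expression (log2 fold change -0.31, SE 0.07, edgeR adjusted p = 0.0052). SLC36A1 (PAT1), which exports amino acids from lysosomes, had 31.3, 30.8 and 27.9 CPM in KO and 33.0, 31.8 and 31.0 CPM upon re-expression (log2 fold change 0.09, SE 0.09, edgeR adjusted p = 0.59). SLC36A4 exceeded SLC36A1 per kilobase by 0.489, 0.522 and 0.675 log2 units in KO and by 0.136, 0.120 and 0.217 log2 units upon re-expression. In the SLC43 family neither tested member passed. SLC43A3, the nucleobase carrier, had a log2 fold change of 0.06 (SE 0.06; edgeR adjusted p = 0.59), and SLC43A1 (LAT3), a uniporter of branched-chain amino acids, of 0.08 (SE 0.16; edgeR adjusted p = 0.81).

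**Figure D3:**
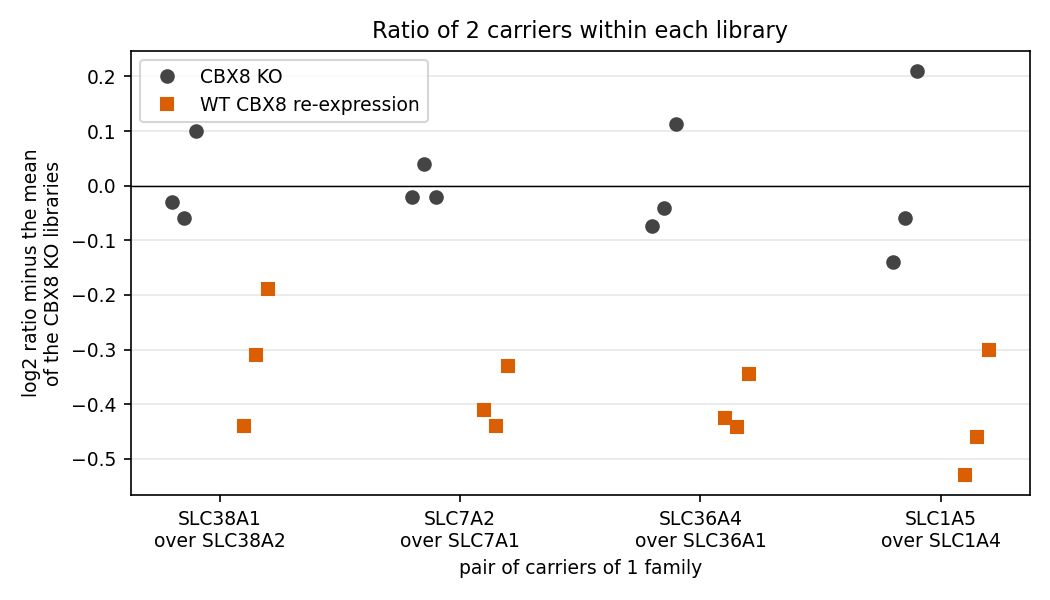
Log2 ratio of 2 carriers of a family in each library, both per kilobase, minus the mean of the CBX8 KO libraries. Circles are CBX8 KO and squares WT CBX8 re-expression. In all 4 pairs, which were chosen after the values were seen, the 3 squares lie below the 3 circles, as the first carrier passed as lower and the second did not pass.

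The SLC6 family held the 2 transporters that rose and 1 that fell. SLC6A6 (TauT; chromosome 3 from 14402576 to 14489349, plus strand), which imports taurine, had 189, 204 and 204 CPM in KO and 161, 156 and 156 CPM upon re-expression. The groups did not overlap, and the log2 fold change was -0.34 (SE 0.05; edgeR adjusted p = 2.8e-05). SLC6A8 (chromosome X from 153687926 to 153696588, plus strand), the creatine carrier, had 49, 63 and 57 counts in KO and 100, 102 and 102 counts upon re-expression. In CPM this was 6.18, 7.49 and 7.29 against 11.8, 11.7 and 12.1, with every re-expression library above every KO library. SLC6A8 was 69.2% higher (log2 fold change 0.76, SE 0.14, edgeR adjusted p = 0.00038), the largest change of the 25. Its transcript also aligned over its full length to 2 other places on chromosome 16 at 95.1% identity and to a further alternate or unplaced sequence, so its counts are uncertain. The pseudogene row SLC6A10P had 1 count in 1 library. No other transporter with at least 10 counts in a library, of 27 searched, had a copy at 95% identity or more over at least 50% of its transcript. Shorter copies were left out by this limit. Of the pseudogene rows of SLC7A5, SLC7A5P1 had 7 to 14 counts per library and SLC7A5P2 had 0, against 10733 to 12979 for SLC7A5.

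SLC6A16 (NTT5; chromosome 19 from 49289638 to 49325215, minus strand), a member with no established substrate, had 27, 32 and 28 counts in KO and 45, 54 and 52 counts upon re-expression. In CPM it had 3.41, 3.80 and 3.58 in KO and 5.29, 6.17 and 6.19 upon re-expression, without overlap. The difference was 0.71 on the log2 scale (SE 0.20; edgeR adjusted p = 0.016). The call was lost under DESeq2 (adjusted p = 0.10), and under edgeR when CBX8 KO replicate 1 was left out (adjusted p = 0.0615) or WT CBX8 re-expression replicate 2 (adjusted p = 0.0693) or 3 (adjusted p = 0.059). SLC6A9 (GlyT1), the glycine carrier, had 24.4, 25.9 and 26.0 CPM in KO and 22.2, 22.8 and 23.0 CPM upon re-expression. It did not pass (log2 fold change -0.16, SE 0.09, edgeR adjusted p = 0.28), and the antisense gene CCDC24, which shares 413 exonic bases with it, rose by 0.41 on the log2 scale (edgeR adjusted p = 0.022). The other 15 SLC6 members, among them the carriers of GABA, dopamine and serotonin, were not tested and had at most 3 counts in a library.

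**Figure D4:**
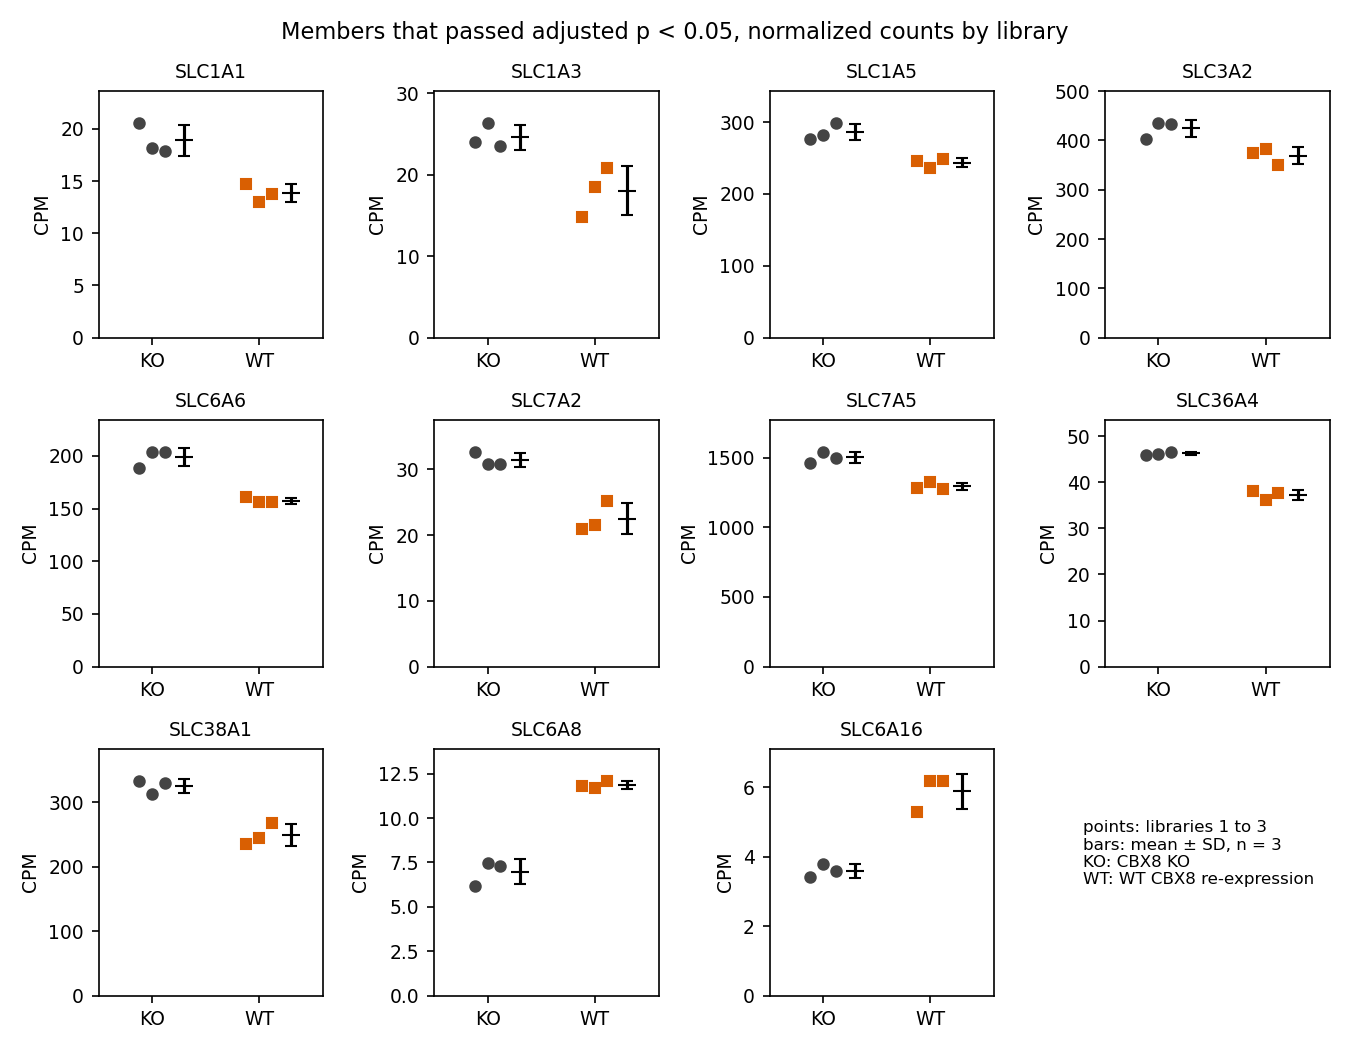
Normalized counts (CPM) of the 11 transporters that passed adjusted p < 0.05, in each of the 3 CBX8 KO libraries (circles) and 3 WT CBX8 re-expression libraries (squares), with the mean ± SD beside them. In every panel the groups do not overlap, with 9 genes lower and SLC6A8 and SLC6A16 higher upon re-expression.

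Genes around these carriers were taken from 3 lists, to be read against 6.63% lower, 6.23% higher and a median log2 fold change of 0.0049 over all tested genes. Of 21 other amino acid carriers, mostly of mitochondria and lysosomes, 14 were tested, 2 were lower and 1 was higher, with a median log2 fold change of -0.08. The single higher gene is near the share over all genes. The lower ones were SLC7A11 and SLC25A13, the aspartate-glutamate carrier of mitochondria, which fell from 85.1 ± 0.469 to 68.8 ± 3.39 CPM (SD, n = 3 each; log2 fold change -0.31, edgeR adjusted p = 0.00059). SFXN3, a sideroflexin of the mitochondrial inner membrane, rose by 0.23 on the log2 scale (edgeR adjusted p = 0.031). Of 30 enzymes of amino acid metabolism, 22 were tested, 3 were lower and the others did not pass, with a median of -0.10. The lower ones were CTH, which makes cysteine from cystathionine (log2 fold change -0.65, edgeR adjusted p = 0.0037), GLUL, the glutamine synthetase (-0.44, edgeR adjusted p = 0.034), and PSAT1 of serine synthesis (-0.32, edgeR adjusted p = 0.00011).

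Of 25 genes of amino acid sensing by mTORC1 and GCN2, 22 were tested, 2 were lower and 1 was higher, with a median of 0.05. Both counts are near the shares over all tested genes (6.63% and 6.23%). ATF4, the transcription factor of the amino acid response, fell from 456 ± 10.9 to 378 ± 14.3 CPM (SD, n = 3 each; log2 fold change -0.27, edgeR adjusted p = 0.00028). DDIT4, an inhibitor of mTORC1 that ATF4 and hypoxia induce, fell from 79.4 ± 5.23 to 45.9 ± 5.91 CPM (SD, n = 3 each; log2 fold change -0.79, edgeR adjusted p = 2.8e-08). SAR1B, a leucine-binding GTPase, rose by 0.18 on the log2 scale (edgeR adjusted p = 0.035). TRIB3, SESN2, CHAC1 and DDIT3 of the same list did not pass. Their log2 fold changes were 0.20, 0.17, 0.13 and -0.06 (edgeR adjusted p = 0.067, 0.48, 0.80 and 0.82). For TRIB3 every re-expression library lay above every KO library. Whether the activity of ATF4 differed was not tested. The list medians describe the genes listed and were not tested against other genes.

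**Figure D5:**
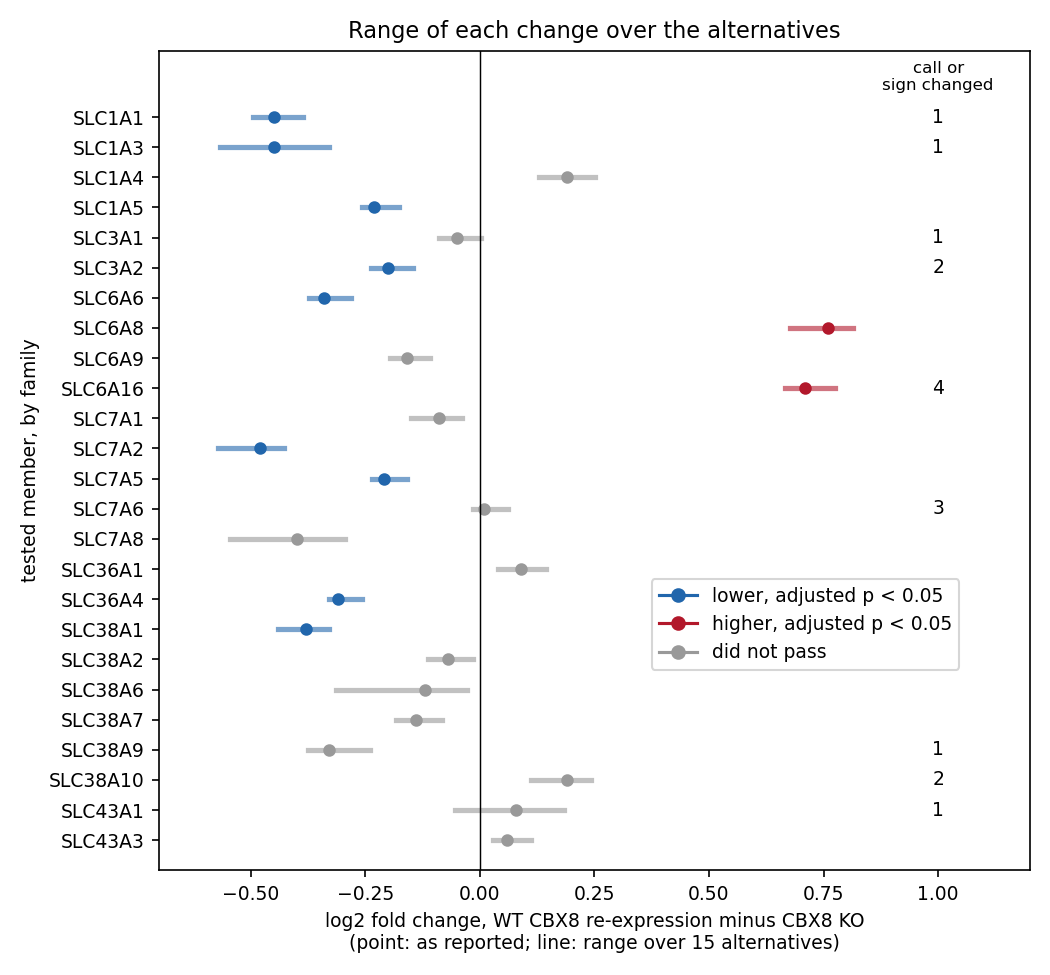
Range of the log2 fold change of each tested transporter over 15 alternatives (lines), with the reported value as a point, and at the right the number of alternatives in which the call or the sign changed. The 9 genes that passed as lower stay below 0 and the 2 that passed as higher stay above 0 in all 15, and SLC6A16 lost its call in 4.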

How the data were processed

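RNA-seq counts of 6 libraries, 3 per group, were analysed. Per the submitters' notes and the study's methods, the authors used Trimmomatic on paired-end reads of poly(A)-selected RNA and then HISAT2 with the hg38 build. The table the authors deposited holds raw, unnormalized counts by gene symbol. The counting program, its annotation and its use of strand are not given in the sources used here, so reads of overlapping genes on opposite strands cannot be told apart. In R 4.3.3, edgeR 4.0.16 kept 14461 genes (filterByExpr), scaled them by TMM and tested them with glmQLFit and glmQLFTest, with group as the only term and Benjamini-Hochberg adjustment. Standard errors were derived from the F statistic (absolute log2 fold change over the root of F). This code was tested on simulated data. Lengths and positions come from GENCODE release 44, which matched all 58 members by name. Copies were sought in hg38 with minimap2 2.31 (at least 95% identity over at least 50% of the transcript). All 66 promoter windows of members equalled hg38.

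The rule for named genes took every member that passed, the highest gene of each family by level per kilobase, and the list genes that passed. Other tested members are given for completeness. The members and lists were chosen with earlier results of these data known. Whether libraries of a group come from separate cultures is not stated, so p-values measure spread between libraries, and depth covers counting error only. Libraries of a group differed by more than counting noise (chi-square per degree of freedom 2.06 to 3.09). As alternatives, scaling was set to RLE, upper quartile or library size only, and the others were DESeq2 1.42.0, limma 3.58.1 voom, glmQLFit with legacy set to FALSE, 2 other filters, adjusted p < 0.01, a replicate block, and leaving out each library in turn. Some results are not reported here.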

Additional observations from a re-analysis of the deposited data

How the results depend on the processing

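The 9 lower transporters became 8 with library size only, and 8 to 10 with 1 library left out. All 9 passed under the other alternatives. The 2 higher transporters became 1 with DESeq2 and 1 at adjusted p < 0.01, 3 with upper quartile scaling or library size only, and 1 to 2 with 1 library left out. SLC6A8 stayed higher throughout, and SLC6A16 was the one lost. Over the 25 tested transporters, 359 of 375 refitted values kept direction and call, 8 lost the call, 3 gained it and 5 changed sign. The sign changes were small values that never passed. SLC3A1 was 0.0019 with library size only, SLC7A6 was -0.0065 with no filter on low counts and -0.0146 to 0.0245 with 1 library left out, and SLC43A1 was -0.054 to 0.18 with 1 library left out. The cause was not tested, except that a stricter threshold cannot raise counts by construction. Leaving out a library changed the whole fit, and without CBX8 KO replicate 3 the lower transporters numbered 10. With the replicate block, 9 transporters were lower and 2 higher, and no call changed. Same-numbered libraries of the groups did not vary together (correlations -0.14, -0.18 and -0.11 over 10353 genes), so the numbers were not taken as pairs. Over all genes, calls numbered 959 lower and 901 higher as reported, 676 and 501 with DESeq2, 592 and 1400 with library size only, 569 and 489 at adjusted p < 0.01, and 635 to 851 and 593 to 792 with 1 library left out. Library size only moved the median of all genes by 0.055. Members with under about 50 counts per library (SLC6A16, SLC7A8) are limited by depth.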
